A study of Homo sapiens with 18 samples.

Results

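H3K9me3 and H3K27me3, the histone marks of heterochromatin and of Polycomb repression, were set against each other within SUV39H1/2 DKO cells, a U937 derivative in which SUV39H1 and SUV39H2 were both knocked out. The comparison rests on 4 of the 18 samples of the series, the 2 H3K9me3 and the 2 H3K27me3 libraries of the genotype labelled DKO. U937 is an established human acute myeloid leukaemia line. Chromatin immunoprecipitation and sequencing of the same marks in SUV39H1 knockout cells (SKO, 2 libraries per mark) and in cells with a control guide (sgControl, 2 libraries per mark) served for comparison, as did 2 SETDB1 libraries of WT cells. The 4 input samples were not analysed here. Different antibodies, amounts of chromatin and amounts of antibody were used for the marks, per the labels' protocols. No source used here says whether DKO and SKO cells were a clone or a mixed population, and the labels do not state that the libraries of a group came from separate cultures. The p-values below therefore measure only the spread between these libraries, which may be technical.

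SUV39H1 and SUV39H2 are methyltransferases that set H3K9me3, above all over repeats and pericentromeric chromatin, while SETDB1 sets the same mark at retrotransposons and at KRAB zinc finger genes through the corepressor TRIM28. H3K27me3 is set by EZH2 or EZH1 within a Polycomb complex and covers silent developmental genes. The marks lie apart along much of the genome of differentiated cells, and KRAB zinc finger genes, many of which encode repressors of retrotransposons, are a known site of H3K9me3.

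For both marks the deposited lists give broad domains called in each library. DKO H3K9me3 libraries held 26069 and 21365 domains with 20.6 and 16.5 M (mega) reads inside them, and DKO H3K27me3 libraries held 15116 and 15786 domains with 69.3 and 47.9 M reads. Over all 12 libraries of the marks the reads in domains ranged between 16.5 and 70.7 M. A difference in covered length between the marks therefore cannot be told apart from these differences in depth, antibody and chromatin. A Drosophila spike-in was added, but the lists are not scaled to it. SUV39H1 and SUV39H2 themselves lay outside the domains of either mark, at 0% of the gene body in all 4 DKO libraries, so the lists do not check the knockouts. SETDB1, the gene, had 12.5 and 16.6% of its body in H3K9me3 domains and 0% in H3K27me3 domains. The labelled cell type could be set only against marks, not expression. Neither mark was carried in DKO cells by 14 of 16 myeloid, 8 of 9 T cell, 6 of 7 B cell, 5 of 7 erythroid and 6 of 7 epithelial marker genes, against 75.7% of all genes, so the marks did not tell these cell types apart. Among the myeloid markers CYBB, a subunit of the phagocyte NADPH oxidase, and CD33, a myeloid surface receptor, carried H3K9me3 alone. All 10 housekeeping genes carried neither mark.

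In DKO cells H3K27me3 was the broader mark, and most of the H3K9me3 territory lay inside it. The lists come from bulk chromatin, so both marks on the same chromosome copy and each mark in different cells or copies cannot be told apart. H3K9me3 domains covered 795 and 788 Mb and H3K27me3 domains covered 1225 and 1198 Mb of a genome of 3028.62 Mb. Every H3K27me3 library thus covered more than every H3K9me3 library. The difference, H3K9me3 minus H3K27me3, was -420.7 Mb, and an exact two-sided permutation test gave p = 0.333, the smallest p that 2 libraries per mark allow. The same difference was -450.6 Mb in SKO cells and -31.9 Mb in sgControl cells. Over the 4 pairings of an H3K9me3 with an H3K27me3 library, 64.2 ± 1.03% of DKO H3K9me3 territory and 42.1 ± 0.968% of DKO H3K27me3 territory were shared (SD, n = 4 pairings that reuse 2 libraries per mark). In SKO cells the mean shares were 53.5% and 33.6%, and in sgControl cells 58.0% and 57.1%. The shared length was 1.58 ± 0.0269 times the product of the genome fractions covered by each mark in DKO cells, against 1.32 in SKO and 1.64 in sgControl cells.

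The genome was divided into bins of 10 kb, each called marked where at least 50% lay in domains of both libraries of a mark. In DKO cells 421.3 Mb carried both marks, 13.9% of all bins, against 332.26 Mb in SKO and 515.96 Mb in sgControl cells. H3K9me3 alone covered 230.18 Mb in DKO cells, 7.6% of bins, against 295.9 Mb in SKO and 350.73 Mb in sgControl cells. H3K27me3 alone covered 573.36 Mb in DKO cells, 18.9% of bins, against 695.72 Mb in SKO and 344.95 Mb in sgControl cells. The double-marked length of DKO cells thus lay between those of the other genotypes, and H3K27me3 alone was the longest of the 3 marked classes in DKO and SKO cells. Neither mark covered 1406.45 Mb of DKO bins, 46.4%, and the libraries of a mark disagreed over 397.33 Mb, 13.1%. When each list was trimmed by score to equal covered length, H3K27me3 alone came to 231.37 Mb in DKO cells, H3K9me3 alone to 273.92 Mb and both marks to 338.97 Mb, so that H3K27me3 alone became the shortest class. Per pair of libraries with the same number the joint length was 506.06 and 529.65 Mb in DKO cells. Their mean of 517.9 ± 16.7 Mb (SD, n = 2) stood beside 411.1 ± 4.68 Mb in SKO and 612.2 ± 11.6 Mb in sgControl cells. DKO minus the mean of the other genotypes was 6.2 Mb (exact two-sided permutation p = 0.867, smallest possible 0.0667). This test pooled SKO pairs, at 407.79 to 414.41 Mb, with sgControl pairs, at 604.01 to 620.42 Mb, on either side of DKO. Its p therefore also reflects the distance between SKO and sgControl cells. It cannot say whether DKO cells differ from either genotype, and the pairs of the 3 genotypes did not overlap.

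**Figure D1:**
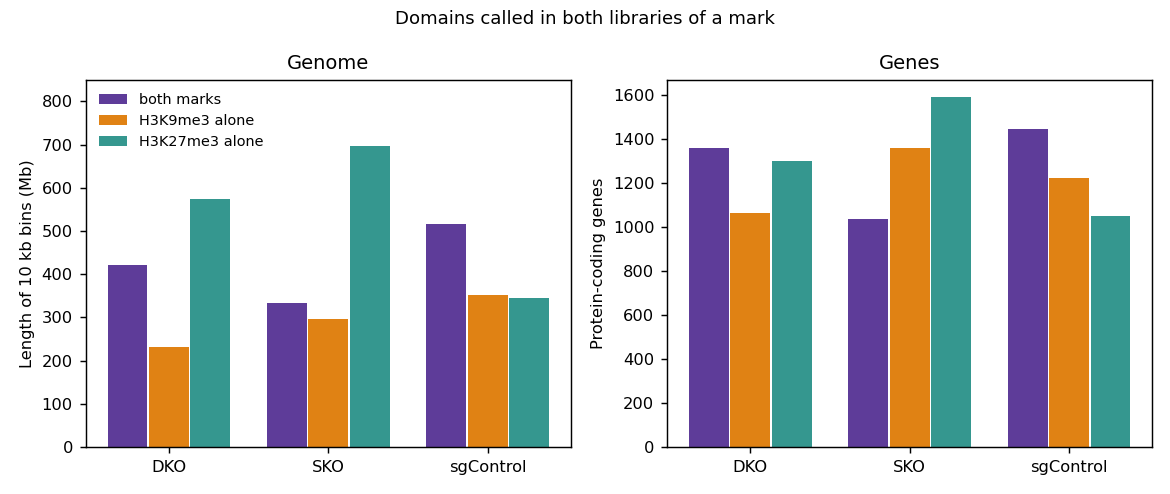
Length of 10 kb bins in Mb (left) and number of protein-coding genes (right) that carried both marks, H3K9me3 alone or H3K27me3 alone in both libraries of a mark, in DKO, SKO and sgControl cells. Bars are single totals per genotype with no error; DKO cells had 421.3 Mb of double-marked bins and 573.36 Mb with H3K27me3 alone.

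Most H3K9me3 domains lay either almost wholly inside or wholly outside H3K27me3 domains. Of DKO H3K9me3 domains 47.6 and 44.8% lay at least 90% inside H3K27me3 domains of the same-numbered library, and 44.7 and 45.8% lay outside them. Of DKO H3K27me3 domains 60.5 and 63.9% held no H3K9me3, close to 64.0 and 65.7% in SKO and above 46.8 and 45.5% in sgControl cells. The classes differed in gene content. Double-marked bins of DKO cells held 3.28 genes per Mb by gene midpoint, bins with H3K9me3 alone 5.90, bins with H3K27me3 alone 2.06 and unmarked bins 10.4, against 6.60 over all bins. Of the double-marked bins of DKO cells 67.4% were also double-marked in sgControl cells, 13.5% had H3K9me3 alone there, 5.35% had H3K27me3 alone and 1.31% had neither. Of the DKO bins with H3K27me3 alone, 20.9% had both marks in sgControl cells. Of the DKO bins with H3K9me3 alone, 25.5% carried neither mark in sgControl cells.

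A gene was taken to carry a mark where at least 50% of its body lay in domains of both libraries. In DKO cells 1357 of 19974 protein-coding genes carried both marks (6.79%), 1061 H3K9me3 alone (5.31%), 1297 H3K27me3 alone (6.49%) and 15116 neither (75.7%), while the libraries disagreed for 1143 (5.72%). Both marks were carried by 1033 genes in SKO cells (5.17%) and by 1445 in sgControl cells (7.23%). Genes with H3K27me3 alone were the longest, with a median length of 55.6 kb, against 30.5 kb for double-marked genes, 29.7 kb for genes with H3K9me3 alone and 22.8 kb for unmarked genes. Of the 1357 double-marked DKO genes 939 were double-marked in sgControl cells too, 171 had H3K9me3 alone there, 73 had H3K27me3 alone and 26 had neither, while 148 were split between libraries. In SKO cells the same 1357 genes were double-marked in 898 cases, had H3K9me3 alone in 70 and H3K27me3 alone in 192.

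The longest genes of each class show how fully a gene can lie inside domains. PTPRT, a receptor tyrosine phosphatase gene on chromosome 20, had 97.7 and 98.1% of its body in H3K9me3 domains and 99.5 and 99.1% in H3K27me3 domains of DKO cells. DSCAM, a neuronal adhesion molecule gene, had 94.7 and 97.1% in H3K9me3 and 98.7 and 98.8% in H3K27me3 domains. In these genes the marks covered nearly the same sequence in every DKO library. NCKAP5, HPSE2, which encodes a heparanase relative, and UNC13C, a synaptic vesicle priming gene, were covered likewise, with at least 91.0% in every DKO library.

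Other long genes carried only one of the marks. SUPT3H, which encodes a subunit of the SAGA coactivator, had 95.02 and 92.77% in H3K9me3 domains and 0 and 0% in H3K27me3 domains. RAPGEF4, an exchange factor gene for RAP GTPases, had 97.5 and 100% in H3K9me3 domains and 0 and 0% in H3K27me3 domains. AK5, an adenylate kinase gene, had 95.1 and 97.1% in H3K9me3 domains and 0 and 0% in H3K27me3 domains. In the other direction CNTNAP2, a neurexin family gene, had 5.95 and 6.29% in H3K9me3 domains and 94.5 and 93.0% in H3K27me3 domains. DMD, the dystrophin gene, had 2.59 and 3.96% in H3K9me3 and 94.5 and 92.8% in H3K27me3 domains. CTNNA2, an alpha catenin gene, had 2.64 and 0.71% in H3K9me3 and 95.8 and 96.0% in H3K27me3 domains. CSMD3, which encodes a large membrane protein, had 0.4 and 1.52% in H3K9me3 and 94.3 and 96.0% in H3K27me3 domains. CNTNAP2 and CTNNA2 act in neurons and DMD in muscle. The libraries of a mark differed by less than 3 points in each of these 7 genes.

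To compare the marks gene by gene, the percentage of each body inside domains was fitted with limma in 8152 genes that any DKO library covered. A gene was called where the Benjamini-Hochberg adjusted p was below 0.05 and the mean difference at least 25 percentage points. Coverage by H3K9me3 was higher in 1724 genes (21.1%) and coverage by H3K27me3 in 1437 genes (17.6%), and the median difference over the tested genes was 4.86 points. Trimming the lists to equal covered length moved these counts to 1968 and 579. Leaving out H3K27me3 replicate 1 or replicate 2 lowered the count of genes with more H3K9me3 to 933 or 922. SUPT3H differed by 93.9 ± 1.03 points (SE, n = 2 libraries per mark, limma adjusted p = 0.0002). CNTNAP2 differed by -87.6 points (limma adjusted p = 0.00012). A domain often spans several genes, so that genes are not independent of each other.

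Gene families differed in which mark they carried. The families were described by counts and by the shares over all genes given here, since their members were known to stand out in these data. Over all genes of DKO cells 6.79% carried both marks, 5.31% H3K9me3 alone, 6.49% H3K27me3 alone and 75.7% neither. Of all genes in the test of the marks 21.1% had more H3K9me3 and 17.6% more H3K27me3. The mean gene of the genome had 16.2 ± 0.21% of its body in H3K9me3 domains and 15.5 ± 0.26% in H3K27me3 domains of DKO cells (SD, n = 2 libraries), and 7.92 ± 0.20% in both.

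Zinc finger genes carried mainly H3K9me3, with or without H3K27me3, and on chromosome 19 none carried H3K27me3 alone. Of 261 zinc finger genes of chromosome 19, 102 carried both marks in DKO cells (39.1%) and 112 H3K9me3 alone (42.9%). H3K27me3 alone was carried by 0 of these genes and neither mark by 31, with 16 split. Their bodies lay 86.0 ± 0.61% in H3K9me3 domains and 39.6 ± 0.89% in H3K27me3 domains on average (SD, n = 2 libraries). SKO cells had 50 such genes with both marks and sgControl cells 64. At equal covered length the DKO count was 38 in place of 102. Of 233 chromosome 19 zinc finger genes in the test of the marks, 124 had more H3K9me3 in DKO cells by limma (53.2%). More H3K27me3 was called in 0 of them, and in 0 also at an unadjusted p below 0.05. Over all tested genes the shares were 21.1% and 17.6%. Of 300 zinc finger genes of other chromosomes, 29 carried both marks in DKO cells, 108 H3K9me3 alone, 10 H3K27me3 alone and 135 neither.

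Olfactory receptor genes were spread over all classes. Of 392, which encode the odorant receptors of the nose, 141 carried both marks in DKO cells, 36 H3K9me3 alone, 68 H3K27me3 alone and 64 neither, with 83 split between libraries. Both marks were carried by 101 of them in SKO and 144 in sgControl cells. Of 94 keratin associated protein genes, which encode hair matrix proteins, 30 carried both marks in DKO cells (31.9%). Both marks were carried by 9 of the 94 in SKO and 41 in sgControl cells. KRTAP10-7 lay wholly inside both marks in every library of the 3 genotypes. Clustered protocadherins, adhesion molecules of neurons, carried both marks in 20 of 53 genes in DKO cells (37.7%). The counts were 17 in SKO and 20 in sgControl cells. Neither mark was carried by 26 of the 53 in DKO cells (49.1%), beside 75.7% of all genes. PCDHA1 of the alpha cluster had 92.9 and 94.3% in H3K9me3 and 86.1 and 92.5% in H3K27me3 domains of DKO cells. PCDHGA1 of the gamma cluster had 12.7 and 27.1% in H3K9me3 and 5.64 and 8.27% in H3K27me3 domains. The alpha genes overlap each other and share their last exons, so their values share most of one stretch. These families and zinc finger genes have near-identical relatives, and values of single members are uncertain.

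Neuronal genes carried mainly H3K27me3. Of 50 neuronal adhesion and guidance genes, 32 carried H3K27me3 alone in DKO cells (64%), against 42 in SKO and 18 in sgControl cells. Both marks were carried by 9 of the 50 in DKO cells (18%), against 3 in SKO and 21 in sgControl cells. Their bodies lay 23.1 ± 1.39% in H3K9me3 and 80.8 ± 1.38% in H3K27me3 domains of DKO cells (SD, n = 2 libraries). In the test of the marks 38 of 50 had more H3K27me3 and 1, NEGR1, more H3K9me3, with a median difference of -65.6 points. These were 76% and 2%, beside 17.6% and 21.1% of all tested genes. NEGR1, a neuronal growth regulator gene, had 38.6 and 35.7% in H3K9me3 and 0 and 0% in H3K27me3 domains. Of 46 GABA and glutamate receptor genes, 16 carried H3K27me3 alone (34.8%) and 12 both marks (26.1%) in DKO cells. Both marks were carried by 6 of the 46 in SKO and 6 in sgControl cells. Of 93 cancer testis antigen genes, which are silent outside the germ line and many tumours, 22 carried H3K27me3 alone (23.7%) and 4 both marks (4.30%). The shares over all genes were 6.49% and 6.79%. Neither mark was carried by 58 of the 93, whose bodies lay 6.14 ± 1.80% in H3K9me3 and 36.4 ± 2.23% in H3K27me3 domains on average (SD, n = 2 libraries), with a median of 0% for both marks. Of 101 developmental regulator genes 22 carried H3K27me3 alone (21.8%) and 4 both marks (3.96%) in DKO cells, beside the same shares over all genes. Both marks were carried by 5 of the 101 in SKO and 10 in sgControl cells.

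Of 47 interferon stimulated genes, 36 carried neither mark in DKO cells (76.6%), near the share of 75.7% over all genes, 4 carried H3K9me3 alone and 2 both marks. Of the 20 tested for the difference between marks, 5 had more H3K9me3 (CMPK2, CXCL9, GBP5, MX1 and RSAD2) and 1 more H3K27me3 (EPSTI1). The shares were 25% and 5%, beside 21.1% and 17.6% of all tested genes, so the first lay near that over all genes. CXCL9, a chemokine gene, had 100 and 100% in H3K9me3 and 0 and 0% in H3K27me3 domains of DKO cells. MX1, an antiviral GTPase gene, had 100 and 75.1% in H3K9me3 and 0 and 0% in H3K27me3 domains. RSAD2, which encodes viperin, had 64.3 and 60.9% in H3K9me3 and 0 and 0% in H3K27me3 domains. EPSTI1 had 48.4 and 38.5% in H3K9me3 and 94.0 and 100% in H3K27me3 domains. IFNB1, the interferon beta gene, lay wholly inside H3K9me3 domains of both DKO libraries, of 1 SKO library and of no sgControl library, with no H3K27me3. CYBB and CXCL9 lay wholly inside H3K9me3 domains in DKO and SKO libraries and outside them in sgControl libraries. Of 17 type I interferon genes 2 carried H3K9me3 alone and 0 both marks in DKO cells, and of 15 SIGLEC genes, which encode sialic acid receptors, 3 carried H3K9me3 alone, 0 both and 9 neither. H3K9me3 alone was thus carried by 11.8% and 20% of these lists, beside 5.31% of all genes, and both marks by 0%, beside 6.79%. The SIGLEC share with neither mark was 60%. HLA-DRA and HLA-DQB2, genes of MHC class II, lay wholly inside both marks in DKO and sgControl cells.

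**Figure D2:**
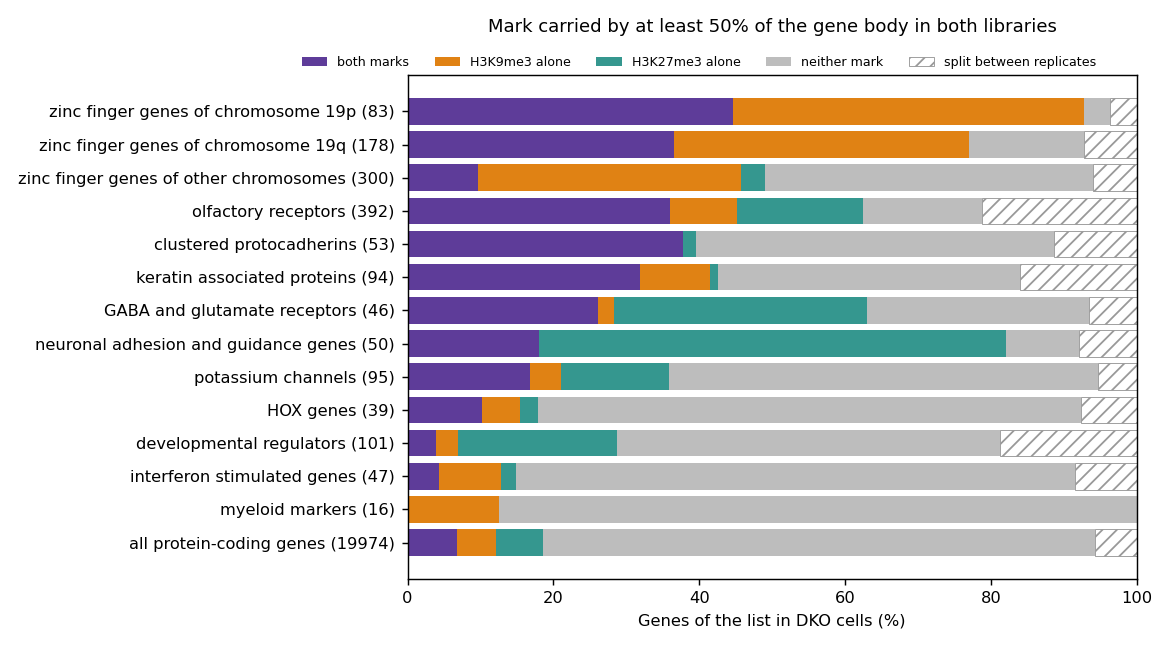
Share of the genes of each list, in percent, that carried both marks, H3K9me3 alone, H3K27me3 alone or neither in DKO cells, or on which the libraries of a mark disagreed (list size in brackets). Zinc finger genes of chromosome 19 show both marks or H3K9me3 alone, neuronal adhesion and guidance genes mostly H3K27me3 alone, and all 19974 protein-coding genes mostly neither.

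Zinc finger genes at most 250 kb apart were joined into clusters of at least 5 genes. Of 24 clusters with 328 genes, 16 held at least 1 double-marked gene in DKO cells, and 107 of the 328 genes were double-marked, against 53 in SKO and 77 in sgControl cells. Of the 12 clusters of chromosome 19, the 10 with a double-marked gene in DKO cells are lettered A to J along the short arm 19p and then the long arm 19q, in build hg38. The other two, at chr19:2819868-2944971 on 19p with 5 genes and at chr19:55476617-55645623 on 19q with 7 genes, had a joint coverage of 0 and 0% in DKO and in SKO cells. In sgControl cells the first of them had 7.03 and 9.59% and the second 0 and 0%. The largest double-marked block was cluster D, at chr19:20530276-23395471, with 25 genes on the short arm. H3K9me3 domains covered 96.5 and 95.6% of it and H3K27me3 domains 77.3 and 77.4% in DKO cells. In SKO cells H3K9me3 covered 94.4 and 96.6% and H3K27me3 45.0 and 44.2%. In sgControl cells H3K9me3 covered 78.9 and 78.1% and H3K27me3 4.27 and 5.70%. The joint coverage per library pair was 75.7 and 74.8% in DKO, 42.2 and 42.9% in SKO and 3.83 and 5.39% in sgControl cells, and no pair of one genotype overlapped those of another. It carried 17 double-marked genes in DKO cells, 8 in SKO and 0 in sgControl cells. At equal covered length the joint coverage of cluster D was 56.0 and 46.8% in DKO cells, with 11 double-marked genes, against 0 and 0% in both SKO and sgControl cells. Read density was taken over the called domains that touched cluster D, relative to the mean over all domains of a library. For H3K27me3 it was 0.93 and 0.91 in DKO, 0.752 and 0.750 in SKO and 0.621 and 0.597 in sgControl cells. These H3K27me3 domains covered 2.61 and 2.62 Mb in DKO, 1.36 and 1.34 Mb in SKO and 0.122 and 0.163 Mb in sgControl cells. Stretches of the cluster without a domain do not enter the density. For H3K9me3 domains the density was 1.25 and 1.30 in DKO, 1.28 and 1.28 in SKO and 0.971 and 0.956 in sgControl cells.

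Within cluster D the double-marked genes included ZNF91 and ZNF208, KRAB zinc finger genes, the first of which is known to repress SVA retrotransposons. ZNF91, at chr19:23305004-23395471, lay 100 and 100% in H3K9me3 and 100 and 93.8% in H3K27me3 domains of DKO cells. Its joint coverage was 100 and 93.8% in DKO cells, against 71.7 and 75.2% in SKO and 0 and 0% in sgControl cells. ZNF208 had a joint coverage of 73.0 and 76.4% in DKO cells, against 0 and 0% in both SKO and sgControl cells. ZNF737 was at 100 and 100% in DKO cells, against 18.4 and 11.6% in SKO and 0 and 0% in sgControl cells. ZNF85 lay wholly inside both marks in DKO and SKO cells and had 0 and 0% joint coverage in sgControl cells. ZNF430, ZNF431, ZNF708, ZNF714 and ZNF100 of the same cluster carried H3K9me3 alone in DKO cells. ZNF431 and ZNF100 had 100 and 100% in H3K9me3 and 0 and 0% in H3K27me3 domains of DKO cells.

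The sequences upstream of 5 of these genes are shown because the genes are neighbours of one cluster and their start sites fell into different classes. Each is the 250 bases before the annotated start on the gene's own strand, 5′ to 3′, from the RefSeq table of GRCh38.p14. Capitals mark every CG dinucleotide. The start sites of ZNF91, ZNF730 and ZNF208 lay in both marks in DKO cells, and those of ZNF431 and ZNF100 in H3K9me3 alone.
ZNF91: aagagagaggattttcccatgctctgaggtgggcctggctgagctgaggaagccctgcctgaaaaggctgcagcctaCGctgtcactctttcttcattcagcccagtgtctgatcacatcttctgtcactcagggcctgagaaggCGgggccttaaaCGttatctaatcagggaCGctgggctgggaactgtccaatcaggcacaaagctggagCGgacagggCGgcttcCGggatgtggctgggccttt
ZNF730: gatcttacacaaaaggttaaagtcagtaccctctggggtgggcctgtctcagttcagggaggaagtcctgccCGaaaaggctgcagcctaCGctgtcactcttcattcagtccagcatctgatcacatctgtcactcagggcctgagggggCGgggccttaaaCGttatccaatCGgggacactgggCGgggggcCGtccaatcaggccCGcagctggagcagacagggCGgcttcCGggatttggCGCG
ZNF208: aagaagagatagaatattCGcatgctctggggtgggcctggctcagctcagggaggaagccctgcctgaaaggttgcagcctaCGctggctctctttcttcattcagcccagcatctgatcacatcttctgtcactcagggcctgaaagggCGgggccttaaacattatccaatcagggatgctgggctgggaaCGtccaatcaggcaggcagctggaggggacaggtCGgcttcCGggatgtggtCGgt
ZNF431: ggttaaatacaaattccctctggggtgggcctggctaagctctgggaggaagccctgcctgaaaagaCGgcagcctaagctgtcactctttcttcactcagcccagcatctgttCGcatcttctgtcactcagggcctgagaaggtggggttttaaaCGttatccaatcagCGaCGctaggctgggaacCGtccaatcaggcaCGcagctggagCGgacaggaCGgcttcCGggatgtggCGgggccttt
ZNF100: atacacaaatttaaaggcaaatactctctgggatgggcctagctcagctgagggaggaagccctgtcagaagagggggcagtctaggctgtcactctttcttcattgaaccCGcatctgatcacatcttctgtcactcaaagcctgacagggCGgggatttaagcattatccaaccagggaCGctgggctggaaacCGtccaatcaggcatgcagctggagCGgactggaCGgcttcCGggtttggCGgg
The 5 windows lie at chr19:23395472-23395721 (minus strand) for ZNF91, chr19:23116775-23117024 (plus) for ZNF730, chr19:22010944-22011193 (minus) for ZNF208, chr19:21141790-21142039 (plus) for ZNF431 and chr19:21767580-21767829 (minus) for ZNF100. ZNF91, ZNF730 and ZNF208 held 7, 12 and 7 CG dinucleotides, and ZNF431 and ZNF100 held 11 and 8. Of all 15812 promoters in the table, 74.6% had at least 7 CG in this window, 64.5% at least 12, 66.6% at least 11 and 72.3% at least 8. Global alignment gave 86.4% identity between ZNF91 and ZNF208, 222 of 257 aligned columns, and 83.8% between ZNF91 and ZNF431. ZNF91 and ZNF730, both double-marked, stood at 76.7%. Over the 19 of 25 cluster D genes with an entry the median was 8 CG (3 to 13), against 17 over the whole table. Of those 19 start sites 12 lay in both marks in DKO cells, against 6 in SKO and 0 in sgControl cells.

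The other short arm clusters had lower joint coverage than cluster D in DKO cells, down to 0 and 0% in the unlettered one. Cluster B, at chr19:11483429-12633834 with 25 genes, had 14 double-marked genes in DKO cells, against 7 in SKO and 5 in sgControl cells. Its joint coverage was 49.1 and 47.2% in DKO, 30.95 and 30.04% in SKO and 25.10 and 21.97% in sgControl cells. ZNF44 of cluster B had a joint coverage of 77.0 and 75.9% in DKO cells, against 18.2 and 0% in SKO and 0 and 0% in sgControl cells. ZNF563 had 100 and 100% in DKO cells, against 75.3 and 83.3% in SKO and 75.3 and 73.3% in sgControl cells. Cluster C had 48.9 and 49.1% joint coverage in DKO, 42.5 and 43.5% in SKO and 20.1 and 25.5% in sgControl cells. Cluster A had 34.3 and 35.3% in DKO cells, 29.7 and 32.1% in SKO and 30.7 and 38.3% in sgControl cells, where DKO and sgControl values overlap.

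On the long arm the order of the genotypes differed from cluster to cluster. Cluster F, at chr19:36182060-37779586 with 29 genes, had a joint coverage of 44.1 and 42.9% in DKO cells, against 16.1 and 15.2% in SKO and 20.4 and 17.2% in sgControl cells, and 12 double-marked genes in DKO cells, against 3 in SKO and 3 in sgControl cells. ZNF540 of this cluster had 89.8 and 69.4% in DKO, 0 and 0% in SKO and 2.27 and 12.4% in sgControl cells. Cluster H, at chr19:51571283-53580269 with 39 genes, had 45.9 and 41.1% in DKO, 19.2 and 18.3% in SKO and 43.9 and 45.1% in sgControl cells. DKO and sgControl values overlapped there, and both lay above SKO. ZNF468 of cluster H was at 100 and 100% in DKO cells and at 0 and 0% in SKO and sgControl cells, whereas ZNF534 was at 100 and 100% in DKO and sgControl cells and at 0 and 0% in SKO cells. ZNF83, also in cluster H, had 100 and 100% in H3K9me3 and 0 and 0% in H3K27me3 domains of DKO cells. Clusters G, I and J had lower joint coverage in DKO than in sgControl cells, without overlap between the pairs. Cluster G, with 23 genes, had 39.3 and 38.0% in DKO, 34.2 and 33.1% in SKO and 47.5 and 43.4% in sgControl cells. Cluster I, with 14 genes, had 57.7 and 57.1% in DKO, 39.5 and 42.5% in SKO and 65.4 and 61.7% in sgControl cells. Cluster J, the largest with 49 genes, had 31.1 and 31.7% in DKO, 18.1 and 18.4% in SKO and 32.9 and 35.8% in sgControl cells. At equal covered length cluster G kept this order, with 16.8 and 16.7% in DKO and 29.8 and 30.6% in sgControl cells. The pairs of cluster I then overlapped, with 44.4 and 44.0% in DKO and 58.0 and 42.7% in sgControl cells. The order turned in cluster J, with 7.28 and 7.46% in DKO and 0 and 0% in sgControl cells. Cluster E was nearly wholly double-marked in all genotypes, at 96.3 and 95.2% in DKO, 85.8 and 88.3% in SKO and 95.6 and 97.8% in sgControl cells.

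**Figure D3:**
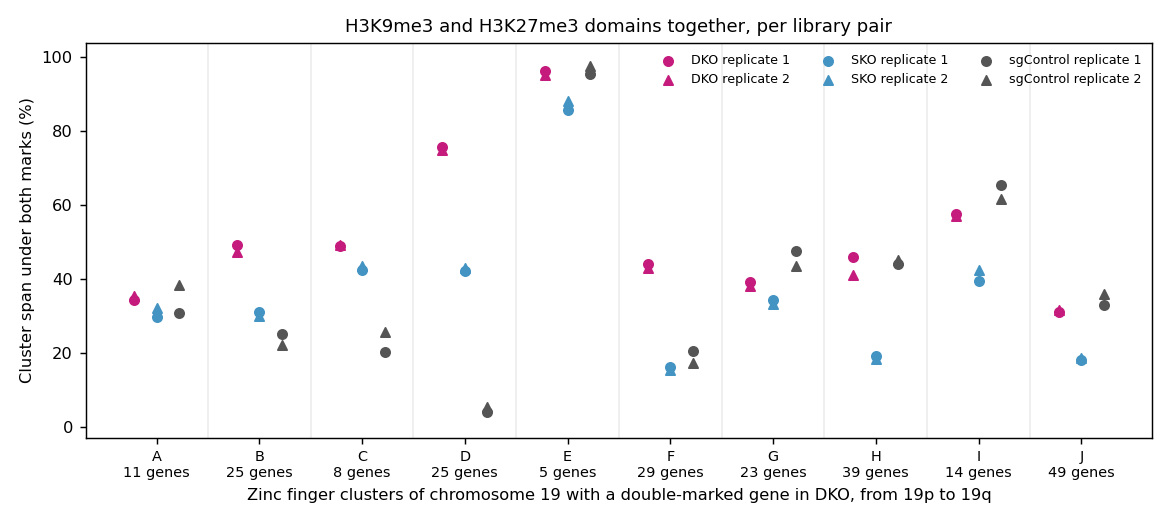
Percentage of the span of 10 of the 12 chromosome 19 zinc finger clusters, those with a double-marked gene in DKO cells, inside domains of both marks, one point per same-numbered pair of libraries, for DKO, SKO and sgControl cells. Clusters run along 19p (A to D) and 19q (E to J); cluster D stands at 75.7 and 74.8% in DKO and 3.83 and 5.39% in sgControl cells.

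Joint coverage per gene was compared between genotypes with limma over the 6 same-numbered library pairs, in 3634 genes with joint coverage in any pair. A gene with joint coverage in a single genotype entered the fit through that genotype and could only be higher there. Shares and medians over the fitted genes therefore partly follow from this filter. Both contrasts share the DKO libraries and are therefore not independent. Against sgControl cells joint coverage was higher in DKO cells in 337 genes (9.27%) and lower in 416 (11.4%), with a median difference of 0 points. Against SKO cells it was higher in 186 genes (5.12%) and lower in 52 (1.43%), with a median of 1.74 points. At equal covered length the calls against sgControl cells came to 285 higher and 254 lower, and the balance turned. Without chromosome 7 the calls against SKO cells came to 171 higher and 9 lower.

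Zinc finger genes of chromosome 19p had more double-marked members in DKO cells than in the other genotypes. Of 83, 37 were double-marked in DKO cells, against 20 in SKO and 7 in sgControl cells, while H3K9me3 alone was carried by 40 in DKO, 55 in SKO and 60 in sgControl cells. The mean joint coverage over the 83 genes was 43.3 and 44.3% per pair in DKO cells, 24.98 and 23.47% in SKO and 12.2 and 9.99% in sgControl cells. A gene with no joint coverage in any pair could not be fitted, so the following counts describe the fitted genes and not the whole list. Genes such as ZNF208, without joint coverage in SKO and sgControl cells, were fitted only through their DKO values. Such genes can only raise the shares and medians of higher joint coverage that follow. Of 48 fitted, joint coverage was higher in DKO than in sgControl cells in 26 (54.2%) and lower in 1 (2.08%), ZNF57, with a median difference of 57.2 points. Over all fitted genes the shares were 9.27% and 11.4%. Against SKO cells limma gave 14 higher and 0 lower (27 and 0 at an unadjusted p below 0.05), with a median of 28.1 points. In that contrast the shares were 29.2% and 0%, beside 5.12% and 1.43% of all fitted genes. ZNF91 rose by 96.9 ± 2.73 points against sgControl cells (SE, n = 2 pairs each, limma adjusted p = 0.000291) and by 23.4 ± 2.73 points against SKO cells (limma adjusted p = 0.0273), the second below the 25 points of a call. ZNF208 rose by 74.7 ± 1.34 points against sgControl cells (limma adjusted p = 7.67e-05). At equal covered length 19 of the 83 were double-marked in DKO cells, against 0 in SKO and 0 in sgControl cells.

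On 19q the double-marked zinc finger genes of DKO cells were close in number to those of sgControl cells. Of 178, 65 were double-marked in DKO cells, against 30 in SKO and 57 in sgControl cells, and the mean joint coverage was 38.3 and 36.2% in DKO, 18.2 and 18.7% in SKO and 35.3 and 35.6% in sgControl cells. Of 103 fitted, 13 were higher (12.6%) and 7 lower (6.80%) in DKO than in sgControl cells, with a median of 0 points. Over all fitted genes the shares were 9.27% and 11.4%. Against SKO cells limma gave 28 higher and 0 lower (39 and 0 at an unadjusted p below 0.05), with a median of 21.6 points. In that contrast the shares were 27.2% and 0%, beside 5.12% and 1.43% of all fitted genes. ZNF468 rose by 100 ± 0.412 points against sgControl cells (limma adjusted p = 6.77e-07). ZNF578 fell by 27.2 ± 5.01 points against sgControl cells (limma adjusted p = 0.0337) and rose by 66.5 points against SKO cells (limma adjusted p = 0.0107). Where a gene had identical values in both libraries, as in ZNF468, its p rests on the spread shared across genes. Of 77 fitted zinc finger genes of other chromosomes, 7 were higher (9.09%) and 17 lower (22.1%) than in sgControl cells, with a median of -7.51 points. ZNF660 on chromosome 3 lay wholly inside both marks in SKO and sgControl cells and had 100 and 100% H3K9me3 with 0 and 0% H3K27me3 in DKO cells.

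The start sites of these genes mostly had the marks of the gene body. Start sites were available for 226 of the 261 chromosome 19 zinc finger genes, 73 of them on 19p and 153 on 19q. Of 86 double-marked genes with an entry, 67 had both marks at the start site in DKO cells, 11 had H3K9me3 alone there and 8 were split. Of 100 genes with H3K9me3 alone, 84 had H3K9me3 alone at the start site too and 6 had both. The start site lay in both marks in 28 of 73 genes of 19p in DKO cells, against 14 in SKO and 5 in sgControl cells. On 19q it did so in 47 of 153 genes in DKO cells, against 21 in SKO and 47 in sgControl cells.

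**Figure D4:**
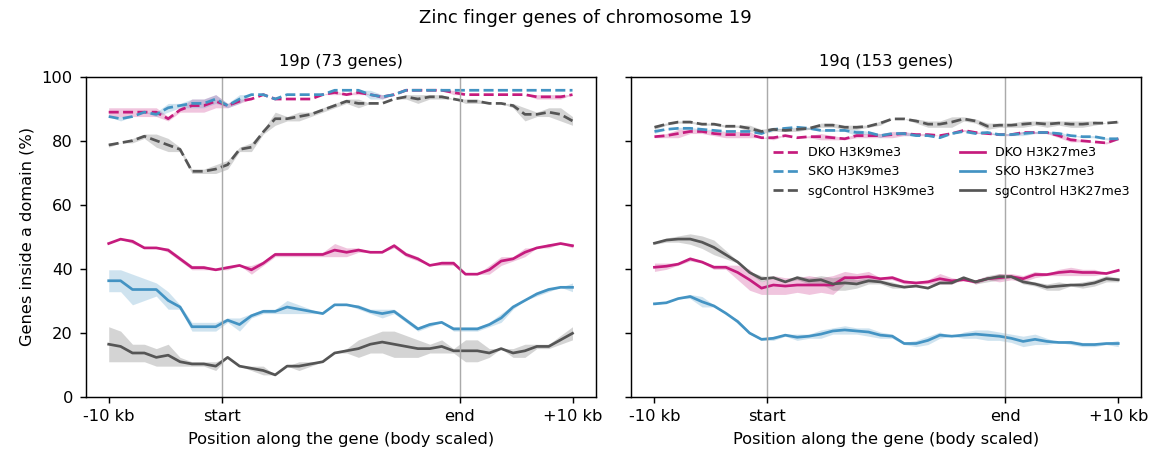
Percentage of chromosome 19 zinc finger genes inside a domain at each position of the scaled gene body and 10 kb on either side, on 19p (73 genes, left) and 19q (153 genes, right). Lines are means of 2 libraries and shading spans them, dashed for H3K9me3 and solid for H3K27me3; on 19p the H3K27me3 line of DKO cells lies above those of SKO and sgControl cells, and on 19q those of DKO and sgControl cells overlap over the gene body.

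Outside the zinc finger clusters, genes of the HOXD cluster of chromosome 2 had both marks in the knockouts and H3K9me3 alone in sgControl cells. HOXD1, HOXD3, HOXD4 and HOXD11, which encode homeodomain factors that pattern limbs and the body axis, lay wholly inside both marks in both DKO and both SKO pairs. In sgControl libraries they lay wholly inside H3K9me3 domains and at 0% in H3K27me3 domains. Joint coverage of these 4 genes rose by 100 ± 0.412 points against sgControl cells (limma adjusted p = 6.77e-07). HOXD12 and HOXD13, at one end of the cluster, carried H3K9me3 alone in DKO cells, with 0 and 0% H3K27me3. Of 39 HOX genes, 4 carried both marks in DKO cells (10.3%, beside 6.79% of all genes), against 6 in SKO and 0 in sgControl cells. Neither mark was carried by 29 in DKO cells (74.4%), near the 75.7% of all genes.

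In the beta globin cluster HBD and HBG1, a delta and a gamma globin gene, lay wholly inside both marks in DKO cells. In SKO and sgControl libraries both genes lay wholly inside H3K27me3 domains and outside H3K9me3 domains. Their joint coverage rose by 100 points against both genotypes (limma adjusted p = 6.77e-07 against sgControl and 1.39e-06 against SKO cells). HBE1, the embryonic globin gene, carried H3K27me3 alone in DKO cells, and the libraries disagreed for HBB and HBG2. HBG1 and HBG2 are near-identical, so their values are uncertain.

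Receptors of GABA and glutamate had several genes with more joint coverage in DKO cells. Of 26 fitted, 5 were higher than in sgControl cells, among them GABRE, GABRG3, GABRQ and GRIN2A, and 2 lower (GRM3 and GRM7). These were 19.2% and 7.69%, beside 9.27% and 11.4% of all fitted genes. GRIN2A, an NMDA receptor subunit gene, rose by 60.4 ± 6.12 points against sgControl cells (limma adjusted p = 0.00768) and by 56.2 points against SKO cells (limma adjusted p = 0.023). GABRE on the X chromosome had 72.7 and 72.7% in H3K9me3 and 100 and 100% in H3K27me3 domains of DKO cells, and rose by 72.7 ± 0.412 points against sgControl cells (limma adjusted p = 1.91e-06). GRM7 had a joint coverage of 59.9 and 67.7% in DKO cells, against 24.2 and 34.6% in SKO and 89.1 and 89.5% in sgControl cells.

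Neuronal adhesion and guidance genes went mostly the other way against sgControl cells. Of 42 fitted, 2 were higher (NTM and OPCML) and 15 lower in DKO than in sgControl cells, with a median of -11.1 points. These were 4.76% and 35.7%, beside 9.27% and 11.4% of all fitted genes. Against SKO cells limma gave 7 higher and 0 lower (18 and 3 at an unadjusted p below 0.05). In that contrast the shares were 16.7% and 0%, beside 5.12% and 1.43% of all fitted genes. ROBO2, a SLIT receptor gene, had a joint coverage of 14.3 and 13.8% in DKO, 0 and 0% in SKO and 70.2 and 67.8% in sgControl cells. It fell by 54.9 ± 1.03 points against sgControl cells (limma adjusted p = 8.68e-05). DCC, a netrin receptor gene, stood at 60.3 and 51.2% in DKO, 7.09 and 17.9% in SKO and 83.7 and 83.7% in sgControl cells, so that DKO lay between the others. NTM, which encodes an adhesion molecule, stood at 46.9 and 43.3% in DKO, 6.46 and 5.55% in SKO and 0 and 5.88% in sgControl cells. Its neighbour OPCML on chromosome 11, of the same family, stood at 44.9 and 41.6% in DKO, 5.94 and 5.73% in SKO and 3.65 and 4.80% in sgControl cells.

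Among interferon stimulated genes limma called 2 of 7 fitted higher in DKO than in sgControl cells and 0 lower, as at an unadjusted p below 0.05, with a median of -18.5 points. The 2 are 28.6% of those fitted, beside 9.27% of all fitted genes. IFI44L, a neighbour of IFI44, had a joint coverage that rose by 80.6 ± 13.1 points (limma adjusted p = 0.0252). IFI44 lay wholly inside both marks in DKO cells, with 55.2 and 100% joint coverage in SKO and 0 and 22.9% in sgControl cells, a difference of 88.5 ± 19.04 points from sgControl cells (limma adjusted p = 0.049). Of the 40 fitted clustered protocadherins limma called 0 against sgControl cells, with 0 higher and 1 lower at an unadjusted p below 0.05. PCDHB2 and PCDHB4 rose by 100 points against SKO cells (limma adjusted p = 0.00464 and 1.39e-06).

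Some genes had both marks over most or all of the body in sgControl or in SKO cells and no H3K9me3 in DKO cells. BRINP3 on chromosome 1 had 0 and 0% in H3K9me3 and 94.3 and 91.4% in H3K27me3 domains of DKO cells, and 74.96 and 75.59% joint coverage in sgControl cells. Its joint coverage fell by 75.3 ± 0.476 points against sgControl cells (limma adjusted p = 2.75e-06). DSG3, a desmosomal cadherin gene, had 0 and 0% H3K9me3 and 100 and 100% H3K27me3 in DKO cells, with both marks over the whole body in sgControl cells. PDPN, which encodes podoplanin, had 0 and 0% in H3K9me3 and 5.39 and 3.05% in H3K27me3 domains of DKO cells, and both marks over the whole body in sgControl cells. ETV1, a gene of an ETS factor on chromosome 7, had 0 and 0% in H3K9me3 and 98.4 and 100% in H3K27me3 domains of DKO cells and fell by 100 ± 4.03 points against sgControl cells (limma adjusted p = 0.00076). CAV2, OR2A25, FAM237B and POM121L12, also on chromosome 7, had H3K27me3 but no H3K9me3 in DKO cells and both marks throughout in SKO cells, and fell by 100 points against SKO cells (limma adjusted p = 1.39e-06). In sgControl cells OR2A25 and POM121L12 had H3K27me3 alone, FAM237B had H3K9me3 alone and CAV2 had neither. In the other direction, CNGA2 on the X chromosome, a gene of an olfactory channel, lay wholly inside both marks in DKO cells and outside H3K9me3 domains in SKO and sgControl cells.

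The chromosomes differed in how the marks overlapped. On chromosome 7 H3K9me3 domains covered 25.6 and 25.5 Mb in DKO, 59.9 and 59.3 Mb in SKO and 78.9 and 76.5 Mb in sgControl cells. H3K27me3 covered 63.5 and 62.0 Mb in DKO, 75.7 and 75.3 Mb in SKO and 62.3 and 62.4 Mb in sgControl cells. Double-marked bins made up 5.54% of chromosome 7 in DKO, 17.89% in SKO and 24.55% in sgControl cells. On chromosome 19 double-marked bins made up 21.46% in DKO, 15.67% in SKO and 15.18% in sgControl cells. On chromosome 18 they made up 16.80% in DKO, 11.58% in SKO and 39.12% in sgControl cells. On chromosome 20 they made up 32.44% in DKO, 26.80% in SKO and 27.90% in sgControl cells. On the X chromosome 5.08% of bins were double-marked in DKO cells, while H3K27me3 alone took 34.2% in DKO, 34.5% in SKO and 13.9% in sgControl cells.

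Double-marked bins of DKO cells formed 8543 runs with a median of 20 kb, and the 993 runs of at least 100 kb held 52.2% of their length. The longest was chr15:60540001-61830000, 1290 kb over RORA, a nuclear receptor gene that had 92.3 and 93.0% in H3K9me3 and 94.6 and 95.7% in H3K27me3 domains. Of its bins 98.4% were double-marked in SKO and 96.1% in sgControl cells. The next, chr6:39830001-41060000 over 1230 kb, held DAAM2, MOCS1, LRFN2, UNC5CL, TSPO2 and APOBEC2, and chr6:51130001-52260000 over 1130 kb held PKHD1 and the interleukin genes IL17A and IL17F. On chromosome 20 a run of 1100 kb lay over PTPRT, 84.5% of it double-marked in SKO and 71.8% in sgControl cells. Another of 1070 kb, chr20:9230001-10300000, held PLCB4, LAMP5, PAK5, ANKEF1 and SNAP25. These 5 runs were largely double-marked in every genotype. The longest run with H3K9me3 alone, chr3:30880001-31740000 over 860 kb, held GADL1, STT3B and OSBPL10 and had H3K9me3 alone in 97.7% of its bins in SKO and 87.2% in sgControl cells. A run of 610 kb with H3K9me3 alone lay over SATB1, a chromatin organiser gene. The longest run with H3K27me3 alone, chr1:189470001-190440000 over 970 kb, held BRINP3. It had H3K27me3 alone in 97.9% of its bins in SKO cells, and in sgControl cells 81.4% of its bins were double-marked.

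The height of the marks differed between the classes. The reads of a domain were spread evenly over it and averaged over bins, per kb and per M reads in domains. In DKO H3K9me3 libraries the density in double-marked bins was 0.721 and 0.718 times that in bins with H3K9me3 alone, against 0.693 and 0.688 in SKO and 0.947 and 0.949 in sgControl cells. In DKO H3K27me3 libraries the density in double-marked bins was 1.45 and 1.45 times that in bins with H3K27me3 alone, against 1.38 and 1.38 in both SKO and sgControl cells. Over the zinc finger genes of chromosome 19 the H3K9me3 density of DKO cells was 2.55 and 2.66 in 404 double-marked bins and 3.03 and 3.20 in 386 bins with H3K9me3 alone.

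SETDB1 peaks, called in WT cells and so in another genotype, lay mostly where DKO cells had H3K9me3 alone. That class held 53.5 and 54.8 peaks per Mb in the 2 SETDB1 libraries, 52.6 and 51.7% of 23420 and 24360 peaks. Bins with H3K9me3 alone in SKO cells held 45.8 and 46.7 peaks per Mb, 57.8 and 56.7% of the peaks. Those of sgControl cells held 27.3 and 28.0 per Mb, 40.9 and 40.4% of the peaks. Double-marked bins of DKO cells held 7.93 and 8.46 peaks per Mb, and bins with H3K27me3 alone 0.426 and 0.579. Unmarked bins of DKO cells held 3.58 and 3.78, against 7.73 and 8.04 over the genome. Among genes, 65.9% of those with H3K9me3 alone and 27.4% of the double-marked ones overlapped a SETDB1 peak in both libraries, against 7.3% with H3K27me3 alone and 14.04% with neither. Of the double-marked zinc finger genes of chromosome 19 a peak lay in 89 of 102 (87.3%), against 3 of 141 olfactory receptors and 1 of 20 clustered protocadherins. The median lengths of these genes were 27.6, 3.24 and 149.9 kb in the same order. Any peak within a gene was counted, so the shares also depend on gene length. All 112 chromosome 19 zinc finger genes with H3K9me3 alone held a peak. Among unmarked clustered protocadherins, with a median length of 112.6 kb, 20 of 26 (76.9%) held one. Protocadherin genes of a cluster can overlap each other, so the same peak may be counted for several genes.

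**Figure D5:**
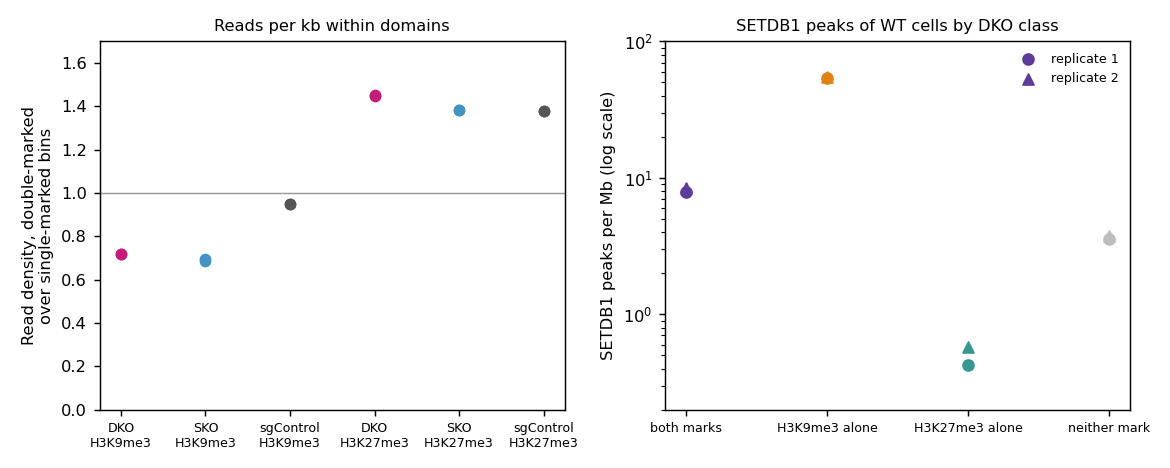
Left, ratio of read density in double-marked bins over bins with the same mark alone, per library of DKO, SKO and sgControl cells; the ratio is below 1 for H3K9me3 (0.721 and 0.718 in DKO cells) and above 1 for H3K27me3 (1.45 and 1.45). Right, SETDB1 peaks per Mb of WT cells on a log scale, 1 point per SETDB1 library, in the bin classes of DKO cells, highest with H3K9me3 alone at 53.5 and 54.8 per Mb.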

How the data were processed

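The H3K9me3 and H3K27me3 lists, named as epic2 output by the submitters, hold broad domains per library on an 800 bp grid with gaps of at least 4000 bp. For each domain the authors deposited the library's own read count and a score, scaled neither for depth nor for the spike-in. For the SETDB1 peaks of WT cells the authors deposited a score and a −log10 p-value, none below 5.0. The submitters' processing notes name builds hg38 and dm6, deepTools 3.5.6, FastQC 0.12.1, Trim Galore 0.6.10 and SICER. No source used here gives the aligner or says how reads that match several places were counted.

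Groups came from the sample titles. Domains on chromosomes 1 to 22 and X were intersected with 10 kb bins and with 19974 protein-coding genes of a RefSeq table of GRCh38.p14. Scores served only to rank domains within a list. A bin or gene carried a mark at 50% or more in both libraries. limma 3.58.1 in R 4.3.3 fitted coverage in points, with moderated tests and Benjamini-Hochberg adjustment over all genes fitted, leaving out genes at 0% throughout. A call needed an adjusted p below 0.05 and 25 points. limma assumes residuals of equal kind, which percentages bounded at 0 and 100 meet only roughly. The script was tested on simulated data. There the test of the marks recovered 13% of differences of 40 points and 43% of those of 70 points. The joint contrast against sgControl cells recovered 44% and 68%. A low count of calls therefore does not show that few genes differed. Start sites and sequences came from a RefSeq promoter table that held 15812 of the genes, and promoters were aligned with Biopython 1.88. Python 3.11.15, numpy 2.4.6, pandas 2.3.3, scipy 1.17.1 and matplotlib 3.10.9 were used elsewhere. Precision is limited by 2 libraries per group, with 16.5 to 70.7 M reads in domains.

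The gene lists and the comparisons were chosen with earlier results of these data known. Genes were named by rule, as the targeted genes, the longest genes of each class, the double-marked members of lists (the 4 longest in each class in lists of over 30), the 3 longest double-marked genes of the 5 leading clusters, the 8 largest calls in each direction of the joint contrasts and the genes in the longest runs. CD33, CYBB, GABRE, GABRQ, GBP5, GRIN2A, GRM3, HBB, HBE1, HBG2, IFNB1, NTM, OPCML, PCDHB2, PCDHB4, ZNF57, ZNF430, ZNF708 and ZNF714, and in the closing section CDH2, CDH7, CDH22 and the histone regulators named there, were chosen after their values were seen. Alternatives varied the share of a bin or gene that counted, the treatment of replicates, the list trimmed by score to its upper 50% or to equal covered length, the chromosomes, the filter, the size of a call and the replicate block. Some genes that these rules or lists cover are not reported here.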

Additional observations from a re-analysis of the deposited data

Results flagged for a closer look

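On 7 chromosomes H3K9me3 domains covered less than H3K27me3 domains in every DKO library while the order was the other way in every sgControl library. The difference in covered length, H3K9me3 minus H3K27me3, was -16.7 Mb in DKO and 35.2 Mb in sgControl cells on chromosome 2, -32.1 Mb in DKO and 10.5 Mb in sgControl cells on chromosome 3, and -18.5 Mb in DKO and 5.39 Mb in sgControl cells on chromosome 6. It was -37.2 Mb in DKO and 15.3 Mb in sgControl cells on chromosome 7, and -8.15 Mb in DKO and 25.9 Mb in sgControl cells on chromosome 8. On chromosome 13 it was -4.64 Mb in DKO and 16.5 Mb in sgControl cells, and on chromosome 21 -5.14 Mb in DKO and 8.19 Mb in sgControl cells. SKO cells had the sign of DKO cells on all 7 chromosomes. Their differences were -21.2, -39.2, -19.6, -15.9, -14.0, -13.5 and -6.45 Mb in the same order. Keratin associated protein genes went the other way, with mean coverage by H3K9me3 above that by H3K27me3 by 5.96 points in DKO cells and a difference of -13.8 points in sgControl cells. These differences between genotypes were not tested. DKO H3K27me3 replicate 2 had a called domain of 7.2 kb with 256 reads on the mitochondrial genome, and the other 11 libraries of the marks had none.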

How the results depend on the processing

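Of 165 recomputed values, 141 kept their direction and side of the threshold or moved little, 20 moved and 4 turned sign, and the cause was not tested. The difference in covered length between marks was 0.0676 Mb at equal covered length, by construction of that setting. The double-marked length of DKO cells minus the others turned to -3.07 Mb when the 50% of domains with the highest scores were used. It turned to -5.60 Mb without DKO H3K27me3 replicate 1 or without DKO H3K9me3 replicate 1. Both of these settings left out the same pair of libraries and are the same computation, listed under each library. Calls of at least 50 points numbered 1040 with more H3K9me3, 220 with more and 258 with less joint coverage than sgControl, and 107 with more and 25 with less than SKO. With no filter on genes joint coverage was higher in 187 and lower in 246 genes than in sgControl, and higher in 80 and lower in 19 than in SKO. Without chromosome 7, 9 genes were lower than in SKO. At equal covered length 254 genes were lower than in sgControl, 579 had more H3K27me3, H3K27me3 alone took 231.37 Mb and 38 chromosome 19 zinc finger genes were double-marked. The overlap ratio was 1.46 with 20% and 1.74 with 80% of a bin, 2.17 at equal covered length and 1.71 with the upper 50%.

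Leaving out 1 library gave -434.3 to -407.1 Mb for covered length, 1377 to 1564 double-marked genes, 922 to 2108 genes with more H3K9me3 and 1122 to 1329 with more H3K27me3. Joint coverage was higher than in sgControl in 327 to 343 genes and lower in 339 to 384, and higher than in SKO in 244 to 267 and lower in 53 to 78. Both marks covered 425.71 to 519.63 Mb, H3K9me3 alone 234.59 to 285.71 Mb and H3K27me3 alone 612.85 to 671.69 Mb. DKO minus the others ranged between -5.60 and 17.99 Mb, the overlap ratio between 1.56 and 1.60, and double-marked chromosome 19 zinc finger genes between 102 and 108. Class lengths and counts of double-marked genes could only stay or rise, since a class needed both libraries of a mark. For joint coverage and DKO minus the others, the same-numbered library of the other mark was left out too. Leaving out the library of either mark with that number was therefore the same computation.

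With a replicate block 1203 genes had more H3K9me3 and 1044 more H3K27me3, and covered length differed by -420.7 Mb. Gene by gene, the difference between the libraries of H3K9me3 was correlated with the difference between the libraries of H3K27me3. This correlation was 0.003 in DKO, 0.020 in SKO and -0.002 in sgControl cells. The replicate numbers thus showed no shared deviation between the marks. Whether same-numbered libraries were made together cannot be read from these values.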

Other observations

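Of 95 potassium channel genes 16 carried both marks in DKO cells (16.8%), against 12 in SKO and 18 in sgControl cells, and 14 carried H3K27me3 alone (14.7%). Over all genes the DKO shares were 6.79% and 6.49%. KCNIP4, which encodes a channel interacting protein, had 2.75 and 3.93% in H3K9me3 and 93.0 and 89.6% in H3K27me3 domains of DKO cells. Of 13 fitted cadherin genes 2 had more joint coverage than in sgControl cells (CDH13 and CDH22) and 2 less (CDH2 and CDH7), beside 9.27% higher and 11.4% lower over all fitted genes. CDH13 stood at 81.9 and 80.5% joint coverage in DKO, 62.4 and 59.2% in SKO and 55.4 and 40.5% in sgControl cells, and rose by 33.2 ± 5.78 points against sgControl cells (limma adjusted p = 0.0297). SLC30A8, the zinc transporter gene of insulin granules, had 98.2 and 97.9% in H3K9me3 and 100 and 100% in H3K27me3 domains of DKO cells. CYP19A1, the aromatase gene, had 73.7 and 80.4% in H3K9me3 and 0 and 0% in H3K27me3 domains.

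Of 23 H3K9 methylation genes 0 carried both marks in DKO cells and 19 neither (82.6%), and of 26 Polycomb genes 0 carried both and 25 neither (96.2%), beside 6.79% and 75.7% of all genes. SETDB2, an H3K9 methyltransferase relative, and ATF7IP, a SETDB1 partner, carried H3K9me3 alone, as did RNF2, a ubiquitin ligase of Polycomb, while PRDM16 carried H3K27me3 alone. FOXA2 and SOX1, regulators of endoderm and of neural tissue, and ERVV-1, a domesticated retroviral envelope gene, lay wholly inside both marks in DKO cells.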
